A study of Mus musculus with 45 samples.

Results

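HetWT tumour Tregs, the Nrp1-sufficient regulatory T cells of heterozygous mice, were compared with the Tregs of wild-type mice (WT), both sorted from B16 melanomas, a transplantable mouse skin tumour. The libraries were taken by their labels: 5 of the 45 libraries of the series were HetWT tumour Tregs and 5 were WT tumour Tregs, 10 of 45 in all. HetWT libraries ds1 and 4 held nearly the same counts (chi-square per degree of freedom 2.69, against 70.3 or more in every pair of a group that was kept apart) and were summed to 1 sample, called HetWT 4, so that 4 HetWT and 5 WT samples were compared. The labels give the heterozygous mice 2 Treg sets, one Nrp1-deficient (HetNrp1def) and one Nrp1-sufficient (HetWT). The comparison therefore asks whether Tregs that keep Nrp1 differ in animals where they live beside Tregs that lack it. The same 2 genotypes were also sorted from non-draining lymph nodes. A further Treg set labelled N carries the same genotype label as HetNrp1def, although homozygous deficient mice are also named for the series. N, HetNrp1def and tumour effector T cells (Teff) are set beside HetWT and WT below, and HetNrp1def is compared with N. Each library came from 5000 cells, single-sorted (numbers 2, 3 and 4) or double-sorted (ds1 and ds2, read so from their names). The summed HetWT 4 joins 1 library of each name, and which name is right for these near-identical counts is unknown. In the fits by sort kind below, HetWT library 4 was taken as single-sorted and HetWT library ds1 as double-sorted. The sources used here do not give age, sex, strain, the Cre driver or what marks the deficient cells. They also do not say whether replicates are different mice, and every p-value therefore describes the spread among libraries that may differ only technically.

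Tregs are CD4 T cells that depend on the transcription factor Foxp3 and hold back immune responses, in tumours too. Neuropilin-1, the product of Nrp1, is a membrane co-receptor on many mouse Tregs that binds semaphorins, and its signal is known to restrain the kinase AKT and to help Tregs keep their identity inside tumours. Interferon-γ, encoded by Ifng and named in the series title, acts through a receptor of the chains Ifngr1 and Ifngr2. Its signal acts on a DNA element called GAS and switches on genes such as Irf1, the guanylate-binding proteins and the antigen presentation machinery.

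HetWT and WT tumour Tregs were not told apart by any gene. Of 14668 genes tested with edgeR's quasi-likelihood test, 0 passed an adjusted p of 0.05 in either direction (0% of genes), and the lowest adjusted p was 0.618, for the predicted transcript 2610204G22Rik. Without adjustment 370 genes (2.52%) had a p under 0.05, of them 92 with a higher level in HetWT (0.627%) and 278 with a lower one (1.90%). DESeq2 called 19 genes, all lower in HetWT, and limma voom called 3. Both are described with the single genes below. The precision depended on the level. Levels below are CPM (TMM-scaled counts relative to depth). Among the 2223 genes with a mean of 100 CPM or more, the 95% interval of the fold change lay within 4-fold in both directions for 93.7% and within 2-fold for 24.2%. Among the 6308 genes under 10 CPM it lay within 4-fold for 0.269%. A difference of 2-fold was therefore not detectable for most genes. The median log2 fold change over all genes tested was -0.0997 with TMM and -0.216 with DESeq2's size factors. With TMM it depended on the level: -0.792 under 10 CPM, 0.0408 at 10 CPM or more and 0.0167 at 100 CPM or more. Fold changes of well-covered genes are therefore better read against the last 2 values than against the median of all genes.

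**Figure D1:**
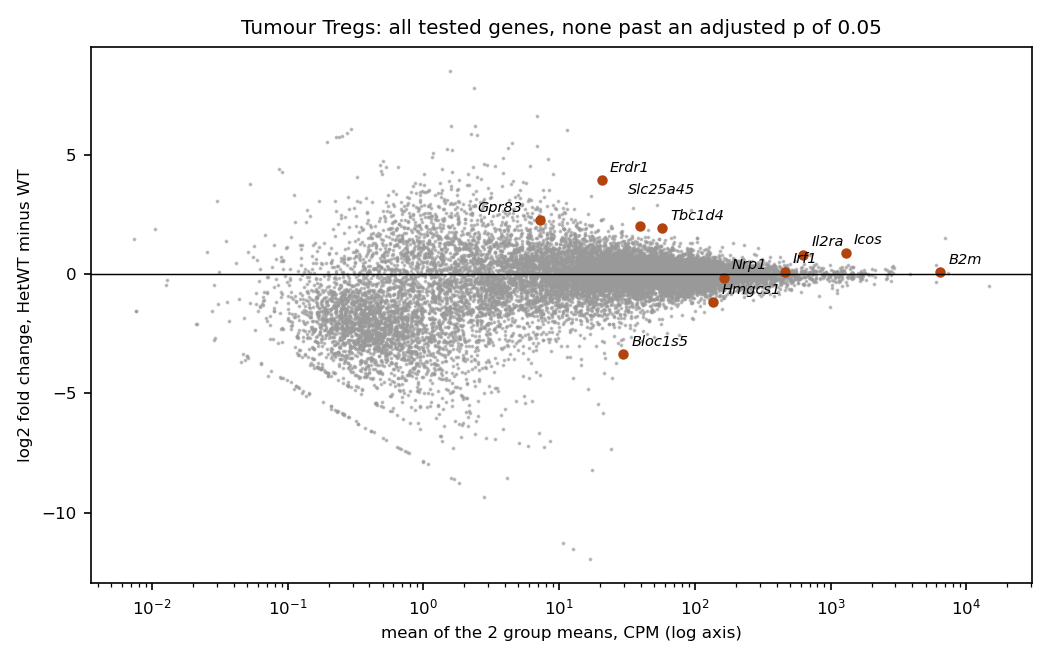
Log2 fold change (HetWT minus WT, vertical) against the mean of the 2 group means in CPM (horizontal, log axis) for every tested gene of the tumour Tregs, with 11 genes of the text marked. The spread narrows as the level rises. B2m (0.09) is among the genes at 100 CPM or more, of which 24.2% had an interval within 2-fold in both directions. Small differences could therefore be missed there too. No point passed the adjusted p of 0.05.

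Before the genes, the samples. Total counts ran from 4743740 to 22879769 in the HetWT samples and from 4000583 to 24113709 in the WT samples. WT ds1 stood apart from the other 8 samples on the first principal component of log2 CPM (30% of the variance, of which the groups explained 6.24%), and it had the most genes detected (20802). HetWT 2 stood apart on the third component (17.3% of the variance, groups 15.4%). Correlations of log2 CPM between HetWT and WT samples (0.662 to 0.918, median 0.847) covered those among the HetWT samples (0.782 to 0.902, median 0.832). Without WT ds1 the genes with an unadjusted p under 0.05 split into 164 higher and 184 lower in HetWT, and the median of all genes became 0.0467. WT 3 was the only 1 of the 9 samples with Y-linked transcripts at depth (Ddx3y 170 CPM, and Xist 0.0739 CPM). All HetWT samples held 0 counts of Ddx3y. In 0.825% of genes the samples of the groups did not overlap (52 genes higher in HetWT, 0.355%, and 69 lower, 0.470%), and all 4 same-numbered differences (with the summed sample numbered 4) had 1 sign in 839 genes that were higher (5.72%) and 785 that were lower (5.35%). The samples carried the T cell and Treg transcripts of their label, with Ctla4 between 969 and 6002 CPM in the 9 samples against 0.365 to 24.9 CPM in tumour effector T cells. Melanoma transcripts differed widely within both groups: Dct ran from 0 to 825 CPM in HetWT and from 1.27 to 1635 CPM in WT.

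Nrp1 showed no detected difference between the groups. It is the targeted gene (chr8:128358604-128503363, plus strand, mm10). HetWT samples 2, 3, 4 and ds2 held 231, 124, 95.1 and 170 CPM, and WT samples 2, 3, ds1, ds2 and 4 held 131, 212, 103, 290 and 118 CPM. The ranges overlapped almost fully. The mean log2 CPM differed by -0.11 (HetWT minus WT), with p = 0.81 in an exact two-sided permutation test whose smallest possible p was 0.0159. This count is no check of which cells had lost Nrp1, since the sets labelled HetNrp1def (154 ± 71.2 CPM, SD, n = 4) and N (154 ± 21.6, n = 5) held as much Nrp1 RNA in the tumour as HetWT (155 ± 59.3, n = 4) and WT (171 ± 78.9, n = 5). A count over a whole gene would still take in any exons that a deletion leaves. Whether this or something else lies behind the similar levels was not tested. In the lymph node Nrp1 ran from 219 to 1439 CPM in HetWT and from 265 to 412 CPM in WT, with a log2 difference of 0.70 (edgeR, adjusted p = 1). That difference came from HetWT ds1 (1439 CPM), since without it the value was -0.31.

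Foxp3, on chromosome X, was low in these libraries for a gene that defines the cells. HetWT samples 2, 3, 4 and ds2 held 10.1, 8.66, 41.2 and 51.9 CPM, and WT samples 2, 3, ds1, ds2 and 4 held 12.3, 18.0, 21.3, 42.6 and 5.99 CPM. Effector T cells of the tumour held at most 1.62 CPM. The exact permutation test gave a log2 difference of 0.34 and p = 0.70, and without HetWT ds2 the difference was -0.10. Ikzf2, which encodes the Treg transcription factor Helios, was far better covered, with 519, 1305, 1251 and 1217 CPM in HetWT and 1342, 1109, 1021, 805 and 970 CPM in WT. Its log2 fold change was 0.03 with a 95% interval of -0.72 to 0.78, so a difference beyond 2-fold lay outside the interval. Tnfrsf18 (GITR), a co-stimulatory receptor of Tregs, was as close, at 0.02 (-0.57 to 0.60).

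Of the 20 Treg identity genes, 0 passed the adjusted threshold, 15 had a fold change above 0 and 5 below. The median was 0.20 in the tumour (all genes: -0.0997, genes at 10 CPM or more: 0.0408) and 0.47 in the lymph node (all genes there: 0.114). Without WT ds1 the tumour split was 12 and 8. Il2ra encodes CD25, the high-affinity chain of the interleukin-2 receptor. It was at 641, 988, 808 and 779 CPM in HetWT and at 533, 396, 295, 347 and 681 CPM in WT, so that only WT 4 reached into the HetWT range. Its log2 fold change was 0.84 ± 0.39 (SE), with an unadjusted p of 0.038 and an adjusted p of 1 (edgeR). All 4 same-numbered differences were above 0. Gpr83, a receptor found on Tregs, was scarce, at 18.1, 7.18, 9.23 and 13.2 CPM in HetWT and 0, 0.222, 2.13, 10.2 and 0.384 CPM in WT. WT ds2 was the 1 WT sample within the HetWT range. The log2 fold change of Gpr83 was 2.29 (adjusted p = 1), it was 4.38 without WT ds2, and among single-sorted libraries alone it was 5.88 and passed (adjusted p = 0.0176).

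Genes of activated tumour Tregs leaned to higher values in HetWT without passing the test. The list of 20 genes had 17 fold changes above 0 and a median of 0.29, and 0 passed. Without WT ds1 the split was 13 and 7, with a median of 0.12, and without HetWT 2 it was 18 and 2, with a median of 0.53. In 3 of the 20 genes the samples of the groups did not overlap, all higher in HetWT, where 0.355% of all genes did so in that direction. The first was Mki67, which encodes a protein of dividing cells: 387, 438, 345 and 625 CPM in HetWT against 227, 308, 224, 339 and 235 CPM in WT, a log2 fold change of 0.75 with a 95% interval of -0.08 to 1.58. HetWT 4 (345) and WT ds2 (339) nearly touched. Havcr2, which encodes the inhibitory receptor Tim-3, held 208, 105, 94.6 and 116 CPM in HetWT against 58.4, 73.5, 8.11, 47.5 and 77.4 CPM in WT. Its fold change was 1.31 (SE 0.94), and 1.03 without WT ds1, its lowest sample. The third was Prdm1, which encodes the effector regulator Blimp-1, with 144, 188, 230 and 200 CPM against 142, 121, 80.0, 105 and 93.7 CPM. Its lowest HetWT sample lay just above the highest WT sample. The lean of the list was not particular to the tumour. In the lymph node its median was 0.78 (all genes there: 0.114). Its summed level in the node ran from 2979 to 3901 CPM in HetWT and from 1887 to 2870 CPM in WT, without overlap. In the tumour the sums overlapped, at 6035 to 11700 CPM in HetWT and 4772 to 10260 CPM in WT. The sums were not tested.

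Icos, a co-stimulatory receptor of activated T cells, had the smallest unadjusted p of the list (0.014, adjusted p = 1). It was at 797, 2193, 1674 and 2089 CPM in HetWT and at 1181, 771, 549, 951 and 1033 CPM in WT. HetWT 2 fell inside the WT range and the other 3 HetWT samples lay above it. The fold change of 0.91 ± 0.36 (SE) became 1.24 without HetWT 2. Among proliferation genes 18 of 32 fold changes were above 0, with a median of 0.06. Without WT ds1 26 of 32 were above 0 (median 0.21), and without HetWT 2 also 26 (median 0.31). Of the 32, 1 (Mki67) did not overlap between the groups. Suppressive effector genes had a median of 0.57 in the lymph node and of 0.17 in the tumour (10 of 16 above 0). Il10, a suppressive cytokine, was at 120 to 227 CPM in HetWT and at 33.9 to 287 CPM in WT, and Ctla4, the checkpoint receptor that strips co-stimulatory ligands from other cells, differed by -0.17 (interval -1.57 to 1.24).

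**Figure D2:**
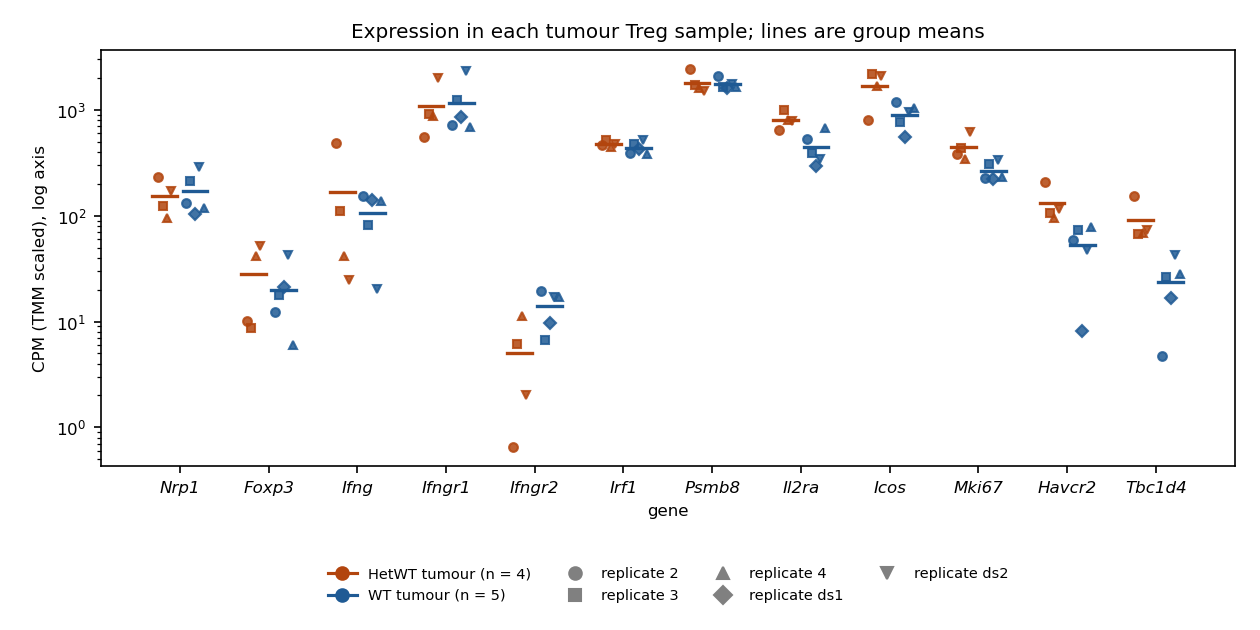
CPM (vertical, log axis) of 12 genes in each of the 4 HetWT (orange) and 5 WT (blue) tumour Treg samples, with symbols for the replicate number and lines at the group means. Mki67 and Havcr2 do not overlap between the groups, while Irf1 lies between 387 and 515 CPM in all 9 samples.

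Ifng itself varied more within the groups than between them. HetWT samples 2, 3, 4 and ds2 held 491, 112, 41.7 and 24.7 CPM, and WT samples 2, 3, ds1, ds2 and 4 held 154, 82.1, 141, 20.2 and 138 CPM. HetWT 2 was the highest of the 9, and both ds2 samples were the lowest of their groups. In mean log2 CPM the groups differed by -0.0021, with p = 1 in an exact two-sided permutation test. Ifngr1, the ligand-binding chain, held 549, 920, 868 and 1990 CPM in HetWT and 724, 1232, 859, 2357 and 685 CPM in WT. Its log2 fold change was -0.11 with a 95% interval of -0.91 to 0.68, within 2-fold. Ifngr2, the signalling chain, was scarce, at 0.647, 6.19, 11.2 and 2.01 CPM in HetWT and 19.4, 6.73, 9.60, 16.97 and 17.1 CPM in WT. WT 3 and WT ds1 lay inside the HetWT range, the fold change was -1.46 (SE 0.95) and the adjusted p was 1. Tbx21, which encodes the Th1 regulator T-bet, was at 150, 54.8, 61.0 and 58.7 CPM in HetWT and at 35.2, 32.4, 69.3, 80.0 and 46.2 CPM in WT. Of the 18 genes of the interferon-γ and Th1 list, 13 lay above 0 (median 0.17) and 0 passed.

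The promoters of interferon-γ response genes are shown here because these genes respond to the cytokine named in the series title. The GAS element was searched as TTCNNNGAA, a motif that reads the same on both strands, in RefSeq promoters (GRCm38.p6) that span 250 bases before to 50 after each start. Of the 31 tested genes of the response list, 23 matched a promoter and 9 of these held the motif. Among all 10776 tested genes with a promoter 8.22% held it, and 8.3% of all 32851 promoters did. The 120 bases before the start are printed for 4 well-covered members with the motif, which is in capitals. They lie on the plus strand at chr11:53769894-53770013 for Irf1, a transcription factor induced early by the cytokine, at chr17:34198075-34198194 for Psmb8, a subunit of the immunoproteasome, at chr11:58199436-58199555 for Igtp, a GTPase active against intracellular pathogens, and at chr3:142530216-142530335 for Gbp7, a guanylate-binding protein.
Irf1: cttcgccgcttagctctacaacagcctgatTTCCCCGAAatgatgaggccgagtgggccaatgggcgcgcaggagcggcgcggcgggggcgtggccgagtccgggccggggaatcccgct
Psmb8: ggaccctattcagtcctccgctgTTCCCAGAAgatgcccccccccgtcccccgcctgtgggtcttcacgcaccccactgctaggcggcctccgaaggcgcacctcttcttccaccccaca
Igtp: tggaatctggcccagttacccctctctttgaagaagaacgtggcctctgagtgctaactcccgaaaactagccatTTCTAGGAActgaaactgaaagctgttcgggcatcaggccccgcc
Gbp7: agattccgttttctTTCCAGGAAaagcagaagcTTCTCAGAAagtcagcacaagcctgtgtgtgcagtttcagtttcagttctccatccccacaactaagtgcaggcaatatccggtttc
The motif begins 90 bases before the start in Irf1, 97 in Psmb8 and 45 in Igtp. Gbp7 has 2 matches in the stretch, the first at 106 bases before the start.

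Irf1 was at 469, 514, 446 and 476 CPM in HetWT and at 396, 479, 430, 515 and 387 CPM in WT. Its log2 fold change was 0.11 with a 95% interval of -0.51 to 0.73. Psmb8 held 2422, 1736, 1603 and 1500 CPM against 2107, 1647, 1611, 1751 and 1641 CPM, a fold change of 0.05 (-0.57 to 0.67). Igtp held 663, 654, 493 and 933 CPM against 516, 592, 571, 1039 and 452 CPM, with both ds2 samples the highest of their groups, and its fold change was 0.11 (-0.67 to 0.90). Gbp7 was at 943, 837, 735 and 901 CPM against 861, 727, 359, 699 and 621 CPM, a fold change of 0.39 (-0.26 to 1.03), the widest of the 4. All 4 genes overlapped between the groups.

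Over the whole interferon-γ response list, 0 of 31 genes passed and 0 had an unadjusted p under 0.05. The fold changes split 20 above and 11 below 0, with a median of 0.03. For 13 of the 31 the 95% interval lay within 2-fold in both directions, where this held for 3.75% of all genes and for 24.2% of those at 100 CPM or more. Among the class I antigen presentation genes, H2-D1 had the narrowest interval of the list (-0.50 to 0.50, around 3833 and 3822 CPM), and B2m, the light chain of class I molecules, ran from -0.53 to 0.70. Tap1, a subunit of the peptide transporter, ran from -0.68 to 0.78. The members farthest from 0 were scarce. Cxcl9, a chemokine gene induced by interferon-γ, was at 0 to 20.2 CPM in HetWT and 0.845 to 5.32 CPM in WT (fold change 2.09), and Ciita, the regulator of class II genes, at 0 to 1.44 CPM against 0.211 to 4.91 CPM (-1.82). The summed level of the list ran from 24270 to 38400 CPM in HetWT and from 25190 to 33840 CPM in WT. In HetNrp1def and N tumour Tregs it ran from 22980 to 33390 and from 23250 to 35510 CPM. The median of the list stayed between -0.083 and 0.14 in 23 other ways of processing. Type I interferon genes had a median of -0.10 (10 of 24 above 0).

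**Figure D3:**
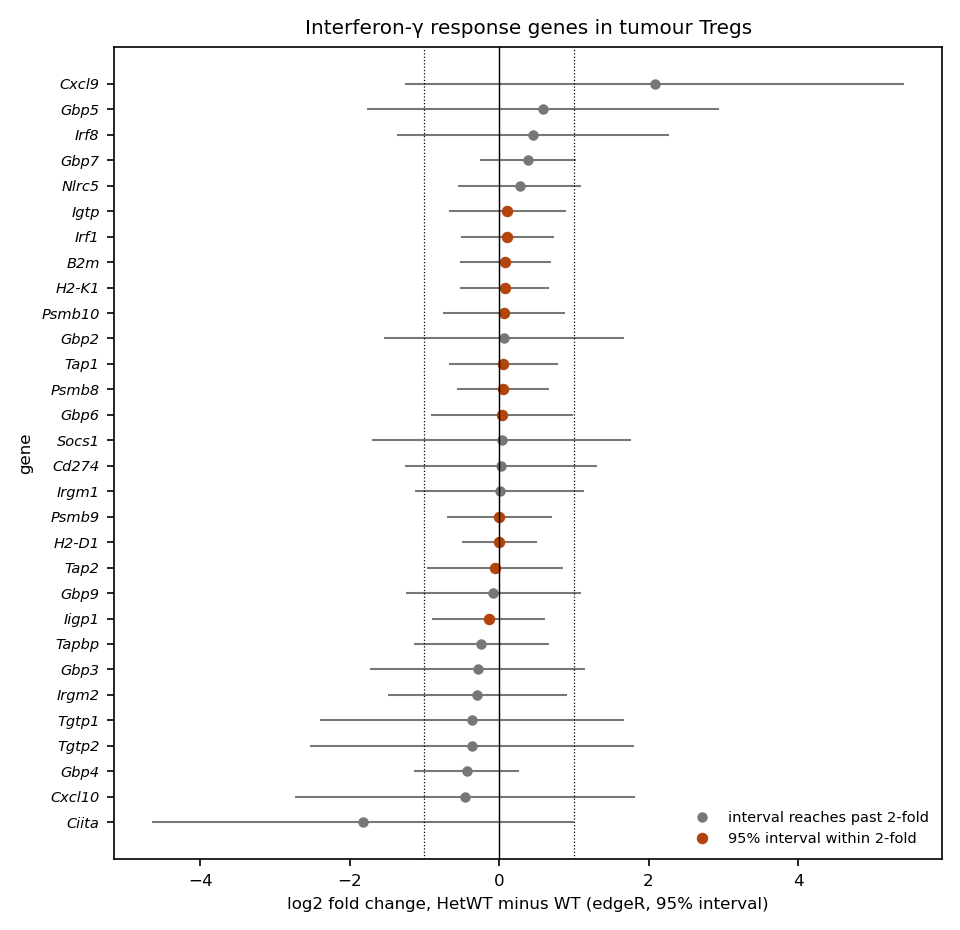
Log2 fold change (HetWT minus WT, edgeR) with its 95% interval for tested interferon-γ response genes, dotted lines at 2-fold. The intervals of the genes in orange, H2-D1 and Irf1 among them, stay within 2-fold, and every interval drawn includes 0.

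Sterol and fatty acid synthesis genes lay lower in HetWT more evenly than any other pathway list. Of 23 genes 22 had a fold change below 0, with a median of -0.72, but 0 passed, 0 had an unadjusted p under 0.05 and 0 were free of overlap. The summed level of the list was 664, 1252, 1991 and 851 CPM in HetWT 2, 3, 4 and ds2, and 1720, 1763, 2667, 1760 and 1773 CPM in WT 2, 3, ds1, ds2 and 4. Of the HetWT samples, 4 alone reached into the WT range. Hmgcs1, the synthase that starts the sterol pathway, was at 57.4, 96.6, 146 and 33.3 CPM in HetWT and at 139, 133, 320, 154 and 198 CPM in WT (fold change -1.18, interval -2.66 to 0.31). Sqle, the squalene epoxidase, was at 0.177, 57.8, 65.4 and 27.4 CPM against 96.5, 89.9, 16.0, 93.8 and 98.8 CPM. Without HetWT 2, the lowest of the 9 samples, the split was 5 above and 18 below 0 and the median was -0.29. Melanoma transcripts lay in the same direction: 13 of 13 tested markers were below 0, with a median of -0.92. That direction turned with double-sorted libraries alone (median 5.42) and in the authors' log2 values (0.22), and without WT 4 the median was -0.17. Their sum was 62.0, 668, 2384 and 32.7 CPM in the same HetWT samples and 1439, 1745, 30.7, 6.79 and 4117 CPM in the same WT samples, and no marker of the list was called. WT ds1 and ds2, with the least melanoma RNA, had sterol sums of 2667 and 1760 CPM. HetWT 4 had both the most melanoma RNA (2384 CPM) and the highest sterol sum (1991 CPM) of its group. The part of melanoma RNA in the sterol sums was not tested in any sample. In bulk samples a smaller share of cells of a type cannot be told apart from less RNA per cell. The sterol sums of HetNrp1def (993 to 1839 CPM) and N (862 to 1463 CPM) lay in the HetWT range, and those of the lymph node groups HetWT (528 to 842 CPM) and WT (552 to 898 CPM) overlapped.

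Glycolysis and hypoxia genes had 9 of 27 fold changes above 0 and a median of -0.12. Hif1a, the oxygen-sensing regulator, varied little within HetWT, at 1016, 976, 1037 and 1018 CPM, against 1273, 1036, 1704, 1622 and 1357 CPM in WT. The fold change was -0.47 (interval -1.11 to 0.18), and WT 3 was the sample that overlapped. Oxidative phosphorylation genes centred on 0 (15 of 31 above, median -0.01). Genes of AKT, mTOR and FOXO signalling, the pathway downstream of Nrp1, split 12 above and 10 below (median 0.08). Klf2, a target of FOXO factors that keeps T cells in circulation, was at 379, 44.6, 62.8 and 133 CPM in HetWT and at 80.5, 63.0, 108, 104 and 31.0 CPM in WT, with HetWT 2 above all others. Nrp1's partners, the semaphorins and plexins, had a median of -0.03 (8 of 17 above 0).

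Genes of naive and circulating T cells had 14 of 19 fold changes above 0, with a median of 0.16. Foxp1, which helps keep T cells quiescent, was at 229, 56.5, 68.5 and 81.9 CPM against 66.9, 67.9, 39.7, 69.4 and 54.5 CPM, with HetWT 2 far above the rest, and its fold change was 0.87 (adjusted p = 1). Immediate early genes of T cell receptor signalling had a median of 0.20 (14 of 23 above 0). Jun, a subunit of the AP-1 factor, was at 63.7, 20.1, 32.2 and 207 CPM against 36.6, 7.25, 26.9, 21.9 and 50.9 CPM. Inhibitory receptor genes had a median of 0.26 (8 of 12 above 0), and Cd200, the ligand of an inhibitory receptor, was at 130, 47.2, 29.6 and 48.5 CPM against 25.8, 38.2, 1.28, 32.7 and 25.0 CPM.

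Chemokine and receptor genes were centred near 0 (9 of 19 above, median -0.02). Cx3cr1, the fractalkine receptor, did not overlap between the groups, at 28.7, 12.9, 11.7 and 14.4 CPM in HetWT and 3.55, 3.99, 0.640, 0 and 6.61 CPM in WT, with a fold change of 2.50 and an adjusted p of 1. Macrophages and NK cells also express it. The summed macrophage markers ran from 532 to 931 CPM in HetWT and from 512 to 876 CPM in WT, with 13 of 19 genes above 0, and the NK cell markers from 41.7 to 199 CPM and from 4.67 to 163 CPM, with 7 of 8 above 0. Single macrophage markers differed in direction. Csf1r, the receptor that defines macrophages, was at most 3.88 CPM in HetWT and 8.80 CPM in WT. Fcgr1 was at 60.378 CPM in HetWT 2, the sample with the most Cx3cr1, and at most 5.4321 CPM in the other HetWT samples. In WT it was at most 9.0423 CPM. Cd68 was at 0.765 CPM in HetWT 2 but reached 35.02 CPM in HetWT 4, against at most 19.61 CPM in WT. The part of those cells in Cx3cr1 was not tested. Remaining marker lists did not separate the groups either. The medians were 0.13 for T cells (8 of 10 above 0), 0.13 for CD8 T cells (5 of 9), 0.39 for dendritic cells (7 of 12), -0.0047 for conventional CD4 T cells (5 of 10), -0.85 for B cells (3 of 8), -1.53 for fibroblasts (1 of 9), -1.37 for endothelial cells (2 of 5), -2.81 for erythroid cells (0 of 3) and -1.66 for neutrophils (0 of 2). Fibroblast and endothelial medians turned to 0.31 and 0.03 without WT ds1. The summed levels of B cell and endothelial markers lay the other way from their medians. The B cell sum was at 10.65, 30.11, 65.98 and 39.68 CPM in HetWT 2, 3, 4 and ds2, and at 11.73 to 22.28 CPM in WT. The endothelial sums had a median of 32.5 CPM in HetWT and 19.4 CPM in WT, with overlap. Those of fibroblasts were lower in HetWT (481 and 616 CPM).

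**Figure D4:**
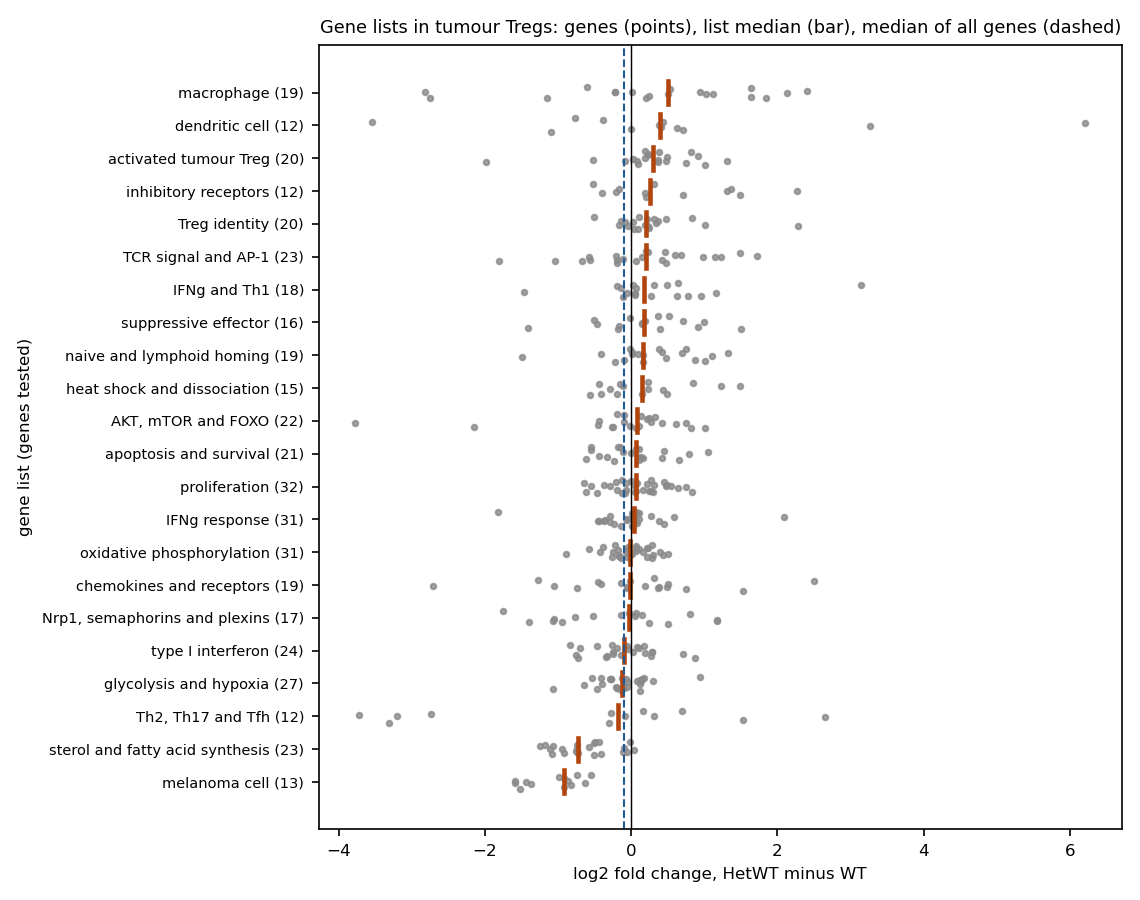
Log2 fold change (HetWT minus WT) of each tested gene (points) in the lists with 12 or more genes, with the list median (orange bar) and the median of all genes (dashed line, -0.0997). The median of genes at 10 CPM or more, not drawn, was 0.0408. Sterol and fatty acid synthesis and the melanoma markers lie lowest, with medians of -0.72 and -0.92, and the interferon-γ response is centred at 0.03.

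The single genes with the smallest p-values in edgeR had adjusted p-values of 1 there, and 6 of the 20 named by this rule were called by DESeq2, all lower in HetWT. Among those higher in HetWT, Tbc1d4 had the highest mean WT level of those without overlap. It encodes a protein that controls the traffic of glucose transporters to the membrane (chr14:101442360-101609191, minus strand). It was at 155, 66.7, 68.6 and 73.0 CPM in HetWT and at 4.69, 26.4, 16.9, 42.9 and 28.3 CPM in WT. The log2 fold change was 1.93 ± 0.63 (SE), higher in 4 of 4 same-numbered pairs, with an unadjusted p of 0.0035 and an adjusted p of 1 (edgeR). Leaving out 1 sample at a time kept it between 1.66 and 2.25. By group mean, HetNrp1def (90.1 ± 62.0 CPM) and N (82.2 ± 34.6 CPM) tumour Tregs were near HetWT (90.7 ± 42.6 CPM), and WT was lowest (23.8 ± 14.2 CPM). The samples were less clear. HetNrp1def ds2 (33.2 CPM) lay inside the WT range, and N 2 and ds2 (46.1 and 43.2 CPM) lay below every HetWT sample. These 2 sets were not tested against HetWT or WT. In the lymph node HetWT (245 ± 152 CPM) and WT (285 ± 253 CPM) overlapped, and the test of the difference between tissues gave an unadjusted p of 0.020 and an adjusted p of 1.

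Erdr1, a gene of the pseudoautosomal region of the sex chromosomes, held 97.4, 15.4, 27.7 and 14.3 CPM in HetWT and 1.82, 6.36, 2.99, 0 and 1.08 CPM in WT, with no overlap. The highest WT sample was WT 3, the one with Y-linked transcripts. The log2 fold change was 3.96 ± 1.31 (SE, unadjusted p 0.0039, adjusted p = 1), and over 23 other ways of processing it ran from 3.08 to 4.87 with a lowest adjusted p of 0.0728. In the lymph node, where other libraries were used, Erdr1 was at 54.99, 39.4, 76.7 and 22.02 CPM in HetWT samples 2, 3, ds1 and ds2, and at 0.653, 32.2, 0, 0.154 and 0.306 CPM in WT samples 2, 3, ds1, ds2 and 4. WT 3 again held the most of its group. That difference was 2.85 (adjusted p = 1 in edgeR), and 6.46 with an adjusted p of 0.00761 in limma voom. HetNrp1def held 24.7 ± 17.3 CPM in the tumour and 50.7 ± 32.7 CPM in the node, with samples that overlapped HetWT in each. N tumour Tregs held 31.7, 14.2, 0.954, 3.35 and 3.89 CPM in samples 2, 3, ds1, ds2 and 4, so that ds1, ds2 and 4 lay in the WT range.

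Slc25a45, a mitochondrial carrier of the solute carrier family, was at 126, 31.8, 34.9 and 61.1 CPM in HetWT and at 14.2, 18.0, 1.07, 21.9 and 21.7 CPM in WT, without overlap (fold change 2.05). Arl4c, a small GTPase, was at 294, 180, 84.3 and 56.1 CPM against 72.8, 83.2, 9.60, 41.0 and 58.1 CPM, with HetWT ds2 inside the WT range and HetWT 4 just above it (fold change 1.54). Rasgrp2 (1.81), an activator of the GTPase Rap1, followed with 69.3, 17.2, 12.2 and 44.4 CPM against 2.62, 14.9, 6.4001, 14.004 and 12.98 CPM. The rest of the 10 named on the higher side rested on few samples. Pus10 was at 560 CPM in HetWT 2 and at 17.9 to 45.7 CPM in the other 3, Drd1a at 89.6 CPM in HetWT 2 and at most 0.292 CPM in the others, and Cd209a at 18.1 CPM in HetWT 3 and at most 0.543 CPM in the others. Gcg had counts in HetWT 2 and 3 and 1 count in WT 2. Mir3101 had 53 counts in HetWT, 52 of them in HetWT 3, and 0 in WT.

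**Figure D5:**
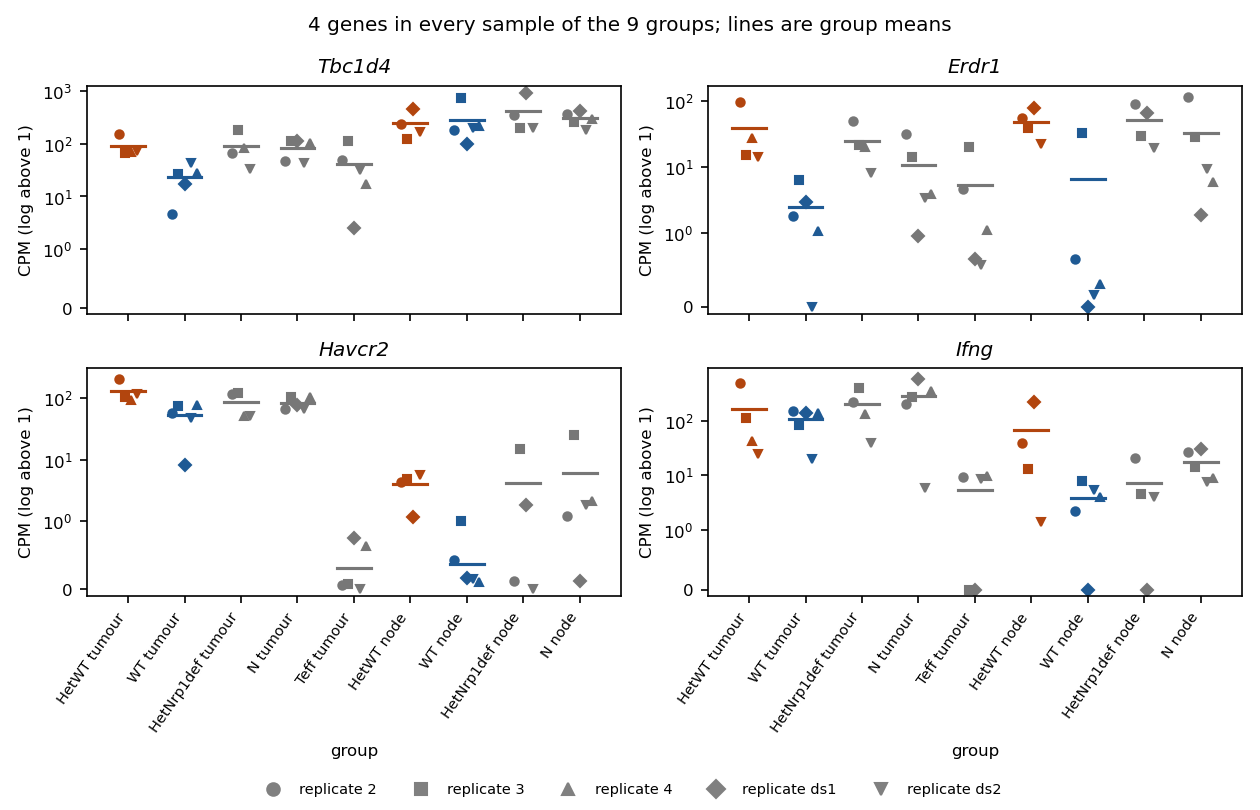
CPM (vertical, log above 1 and linear below) of Tbc1d4, Erdr1, Havcr2 and Ifng in every sample of the 9 groups, HetWT in orange and WT in blue, with lines at the group means. WT has the lowest mean of the tumour Treg groups for Tbc1d4, Erdr1 and Havcr2, but samples of HetNrp1def or N lie inside its range for each. Erdr1 in the WT lymph node is high in sample 3 only (32.2 CPM).

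On the lower side, Bloc1s5, a subunit of a complex that builds lysosome-related organelles such as melanosomes, was at 4.83, 3.63, 10.1 and 2.38 CPM in HetWT and at 23.7, 10.9, 204, 21.2 and 11.4 CPM in WT. The groups did not overlap, but HetWT 4 and WT 3 lay within 1 CPM of each other. The fold change was -3.36 with all samples and -1.68 without WT ds1, the sample at 204 CPM. Traf3ip1, a protein of ciliary transport, was also highest in WT ds1 (142 CPM, against 1.61 to 25.5 CPM in the other WT samples and 0.588 to 6.52 CPM in HetWT). Icam4, Mansc4, Ncrna00085 and Irx5 had 0 counts in all HetWT samples. Against a floor of 3 counts over the group, pooled counts of Icam4 (255 in WT) were at least 82.1-fold lower, Mansc4 (139) at least 44.8-fold, Irx5 (97) at least 31.2-fold and Ncrna00085 (95) at least 30.6-fold. All lay below 10 CPM in every WT sample, and their adjusted p was 1. The pooled folds cover counting error only and rest mostly on few WT samples. Icam4 had 123 counts in WT 2 and 112 in WT 4, and Mansc4 had 58 in WT 2 and 66 in WT 3. Irx5 had 59 in WT 4 and 26 in WT 3, and Ncrna00085 had 63 in WT 2 and 28 in WT 4. WT ds2 also held 0 counts of Irx5 and Ncrna00085. Nme4, F13a1, Atg4c and Cd40 had at most 5 counts in HetWT each. Cd40, a receptor of antigen-presenting cells, was at 0, 6.43, 1.07, 2.33 and 3.46 CPM in WT.

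DESeq2's 19 calls came from such genes. All 19 were lower in HetWT, and 8 had 0 counts in every HetWT sample, Ddx3y and Eif2s3y among them, which are Y-linked and came from WT 3. Bloc1s5 (-3.71, adjusted p = 0.0067 in DESeq2) and Traf3ip1 (-3.84, 0.0111) were called too. The 3 calls of limma voom were 2610204G22Rik (-6.94) and Vgll3 (-6.07), lower in HetWT, and Ermn (5.14), higher, all below 20 CPM except 2610204G22Rik, which reached 109 CPM in 1 WT sample. DESeq2 and limma voom shared 2610204G22Rik.

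The same genotypes outside the tumour gave the same count. HetWT and WT Tregs of the lymph node (4 and 5 samples, other libraries than in the tumour comparison) differed in 0 of 14668 genes (0%), with 599 at an unadjusted p under 0.05 (4.08%, of which 2.88% higher and 1.20% lower in HetWT) and a lowest adjusted p of 0.365. DESeq2 called 28 and limma voom 3. Libraries of 1 number may in part come from the same mice in both tissues. Y-linked counts stood out in WT 3 in the tumour (8715) and the node (3363), and in effector T cell sample 3 (4408). Other samples of these groups held at most 4. In the N set, sample 2 held such counts in tumour (7101) and node (9714). N ds2 held 1846 in the tumour but 0 in the node, so the number did not always go with the mouse. The test of whether the difference itself changed between tumour and node called 0 genes (568 unadjusted, 3.87%, with 0.914% above and 2.96% below 0; DESeq2 15, limma voom 2). Ifng in the node was at 68.8 ± 103 CPM in HetWT and 3.84 ± 2.97 CPM in WT (fold change 4.14, unadjusted p 0.0047, adjusted p = 1 in edgeR). DESeq2 called Ifng in the node (4.56, adjusted p = 0.0392). HetWT ds1 held 222 CPM and HetWT 2, 3 and ds2 held 39.3, 12.96 and 1.40 CPM. Without ds1 the value was 2.11 in DESeq2, no longer called (adjusted p = 0.982), and 2.19 in edgeR. DESeq2 without ds1 called 43 genes in the node, more than the 28 with all samples. The tumour fold change of Ifng in edgeR was 0.65, and the test of the difference between tissues gave an unadjusted p of 0.063. With same-numbered tumour and node samples of a genotype as a block (3 HetWT and 5 WT pairs, an alternative chosen after seeing the data) 0 genes were called and 255 had an unadjusted p under 0.05. The difference of Ifng between tissues was then -1.35 (adjusted p = 1). Havcr2 was higher in HetWT in the node too, but at 3.96 and 0.37 CPM.

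Across all 14668 genes the fold changes in tumour and node correlated by r = -0.0893, and by r = 0.0431 across the 8356 genes at a mean of 10 CPM or more, a description over genes that are no independent replicates. The Nrp1-deficient cells of the heterozygous mice gave the matching comparison. HetNrp1def against N tumour Tregs, again with no library in common with HetWT and WT, called 0 genes (0%), with 213 at an unadjusted p under 0.05 (1.45%, with 0.409% higher and 1.04% lower; DESeq2 called 5, limma voom 1). Its fold changes correlated with those of HetWT against WT by r = 0.184 over all genes and by r = 0.0614 over those at 10 CPM or more. Tbc1d4 differed there by 0.14, Il2ra by 0.10, Icos by -0.19, Mki67 by -0.12 and Havcr2 by 0.02, where HetWT against WT had given 1.93, 0.84, 0.91, 0.75 and 1.31. Whether those differences differ was not tested. N tumour samples 2 and ds2 held Y-linked counts (7101 and 1846), while HetNrp1def tumour samples held at most 47.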

How the data were processed

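The labels' protocols name SMARTer low-input cDNA, Nextera XT libraries and a NextSeq 500. The deposited counts are whole reads per gene symbol. The submitters' processing notes list STAR, featureCounts and limma, and mm10 as the build. Versions, annotation and strand setting were not given in the sources used here, so genes that overlap, run antisense or share sequence with paralogs (the Gbp family, Tgtp1 and Tgtp2) are uncertain. A second deposited table holds the authors' log2 expression after their own normalization and filter, and served only as an alternative. Near-identical libraries (chi-square per degree of freedom under 5) were summed, which left 41 samples of 45 libraries. edgeR 4.0.16 (R 4.3.3) was run on the counts of all 41 samples in 9 groups: TMM, filterByExpr, robust quasi-likelihood fits with 32 residual degrees of freedom and no covariates, and Benjamini-Hochberg adjustment over 14668 genes. Standard errors and 95% intervals were derived from the quasi-likelihood F and are approximate. They cover the spread between samples, while the floor of 3 counts covers counting error only. Nrp1, Foxp3 and Ifng were also tested on log2 CPM (prior count 2) by exact permutation, as 3 tests in 1 family (adjusted p = 1 for each). DESeq2 1.42.0, limma 3.58.1, other filters, scalings, sample subsets and leaving out each sample were the alternatives. The edgeR step was tested on simulated data. Symbols matched GENCODE vM21 for 21777 of 23420 genes.

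Named were Nrp1, Foxp3, Ifng and its receptor chains, the 10 genes of smallest p in each direction (without predicted models), and the 2 of smallest p in each list. The Treg, interferon, antigen presentation, sterol and promoter genes outside that rule, and the genes called by other tools, were chosen after their values were seen. Some genes the rule names are not reported here. The comparison and the lists were chosen with earlier results of these data known. The replicate numbers were not taken to pair the samples, since same-numbered tumour samples deviated together with r from 0.0243 to 0.405.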

Additional observations from a re-analysis of the deposited data

Results flagged for a closer look

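Of 164 sets of values (the named genes in each group of 4 or 5 samples), 17 held a sample farther from the rest of its group than Dixon's 95% critical value allows. Chance gives about 1 in 20 such sets for normal values of genes chosen beforehand. Most of these genes were picked by p in the same samples, and at the floor 1 count can flag a set. The 17 therefore cannot be read as an excess. WT ds1 accounted for 8 of the 17. It was the highest sample of its group for Bloc1s5 (203.95 CPM, others at most 23.7), Meg3 (8.3202 CPM, others at most 0.154) and Cd209a (0.42668 CPM, others at 0). It was the lowest for Slc25a45 (1.0667 CPM, others 14.2 or more), Pus10 (2.5601 CPM, others 21.9 or more), Cd200 (1.28 CPM, others 25.0 or more), Havcr2 (8.1068 CPM, others 47.5 or more) and Cd28 (56.108 CPM, others 332 or more).

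WT 3 was highest for the Y-linked genes Kdm5d (18.3 CPM) and Uty (27.838 CPM), which had 0 CPM in the other WT samples, and for Klrc1 (4.8431 CPM, others at most 0.213). HetWT 2 was highest for Tbc1d4 (154.54 CPM, others 66.7 to 73.0), Mcm7 (175.66 CPM, others 66.8 to 71.4) and Cd40 (0.058848 CPM, a single count, others at 0). WT 2 was highest for Gcg (0.042254 CPM, a single count, others at 0), WT 4 lowest for Mansc4 (0.15363 CPM, others 1.27 or more) and WT ds2 lowest for Plxnb2 (0 CPM, others 5.55 or more).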

How the results depend on the processing

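The count of 0 called genes in the tumour held under edgeR with DESeq2's size factors, both other filters, the 45 libraries unsummed, either library of the joined pair alone, only the 2 groups, double-sorted libraries alone, limma on the authors' log2 values and each of 9 samples left out (0 to 0 calls, 310 to 580 at an unadjusted p under 0.05). It was 19 with DESeq2, 3 with limma voom and 1 (Gpr83) with single-sorted libraries alone. The single-sorted and double-sorted subsets were not independent, since each held 1 of the near-identical HetWT libraries 4 and ds1. The lymph node comparison had 28 calls with DESeq2, 3 with limma voom, 1 (Erdr1) with the authors' log2 values and 1 (Slc15a3) with single-sorted libraries, the difference between tissues 15 with DESeq2 and 2 with limma voom, and HetNrp1def against N 5 with DESeq2 and 1 with limma voom. In each of these comparisons the other alternatives gave 0, as did edgeR with each sample left out. DESeq2 was also run in the node without HetWT ds1, and called 43 genes there. Why the tools differ was not tested. HetWT and WT samples shared only a number (same-numbered r 0.0243 to 0.405, other numbers -0.25 to 0.207), and the fit with the replicate block also called 0 genes in all 4 comparisons, as did a block of same-numbered tumour and node samples for the difference between tissues (in the tumour, with the first block, 213 higher and 283 lower at an unadjusted p under 0.05).

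The sign of the small differences tested singly was not stable. Leaving out 1 sample moved Nrp1 between -0.3273 and 0.1103, Foxp3 between -0.1012 and 0.7537 and Ifng between -0.8348 and 0.6005. Ifng was 1.094 in the authors' log2 values. With the replicate block, as paired differences, Nrp1 was -0.2629, Foxp3 0.4289 and Ifng 0.1712. Of 86 named genes 61 were tested in all 23 alternatives, and 38 of these kept their sign throughout. The other 25 were tested in 17 or more, and 16 of them kept it. In all, 7 genes were called in any alternative. The 6 besides Gpr83 were called by DESeq2. Under no filter the unadjusted split was 229 higher and 915 lower, and with single-sorted libraries 331 and 285. The list of sterol genes had a median below 0 in all 23 alternatives (-0.843 to -0.0684), activated tumour Treg genes one above 0 (0.12 to 0.954) and melanoma markers one between -3.11 and 5.42. Samples down to 4000583 counts and the spread between them limit genes under 10 CPM most.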
